A study of Caenorhabditis elegans with 2 samples.

Results

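The DREAM complex and the wider synthetic multivulva class B (synMuv B) group are represented here by 10 genes of Caenorhabditis elegans: lin-9, lin-35, lin-37, lin-52, lin-53, lin-54, efl-1, dpl-1, lin-15B and lin-13. They were taken by name, with no threshold on a measured value but with earlier results of these data known, out of 19973 protein-coding nuclear genes, and all 10 were found in the Ensembl annotation of WBcel235. What was measured at their promoters was the binding of ATTF-5, whose name marks it as an AT-hook factor, by ChIP-seq. A promoter window ran from 1000 bp upstream to 200 bp downstream of the annotated 5′ end.

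Chromatin came from whole worms of strain OP724, which carries the unc-119(tm4063) mutation and the integrated transgene wgIs724. That transgene holds attf-5 fused to TY1, EGFP and 3xFLAG, with a wild-type copy of unc-119. The animals were young adults of pooled sexes, collected at 66 hours after starved L1 larvae had been obtained by bleaching, and the sonicated chromatin was precipitated through GFP. There was 1 group with 2 biological replicates, numbered 1 and 3, and no second condition, so no test between conditions was possible and every comparison below is a description. Whole animals average all tissues, and the values do not show in which cells a region was bound. The distances from the native loci of the transgene were large: lin-15B, the nearest of the 10 genes to attf-5, lay 14.9 Mb away, and lin-52, the nearest to unc-119, lay 1.08 Mb away.

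The values are the authors' region lists in ce11, which has the same coordinates as WBcel235. Each region has a summit, a signal value on the authors' own enrichment scale and a −log10 q. The replicate 1 list held 30000 regions, the replicate 3 list 28299 and the pooled list 30000, and these lists include background by their description. The thresholded list held 3331 regions, which were the 3331 strongest of the pooled list, and only these are called peaks here. How deeply the libraries were sequenced is not known. Signals are the authors' values and were compared within a list or side by side between the replicates, without rescaling.

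DREAM joins an E2F and DP heterodimer, a pocket protein of the retinoblastoma family and the MuvB core, and it is known as a repressor of cell cycle genes in quiescent cells. In C. elegans the class takes its name from vulval development, where its loss together with that of a synMuv A gene gives extra vulval tissue, and its members also keep germline genes silent in somatic cells. LIN-54 is the MuvB subunit that contacts DNA at the cell cycle homology region, and EFL-1 with DPL-1 contacts E2F sites.

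A promoter peak was present at 8 of the 10 genes, against 12.3% of all protein-coding genes. The strongest peak of these 8 genes had a median signal of 428, against a median of 164 over all 2461 genes with a promoter peak, and 6 of the 8 lay above that median. The 8 were lin-54, lin-53, efl-1, lin-35, lin-9, lin-13, lin-15B and lin-52. The 2 genes without a peak were lin-37 and dpl-1. In the unfiltered lists all 10 genes had a summit in the window in the pooled list, where 38.6% of all genes did. In replicate 1 there were 9 such genes, against 38.7% of all genes, and in replicate 3 there were 10, against 40.0% of all genes.

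**Figure D1:**
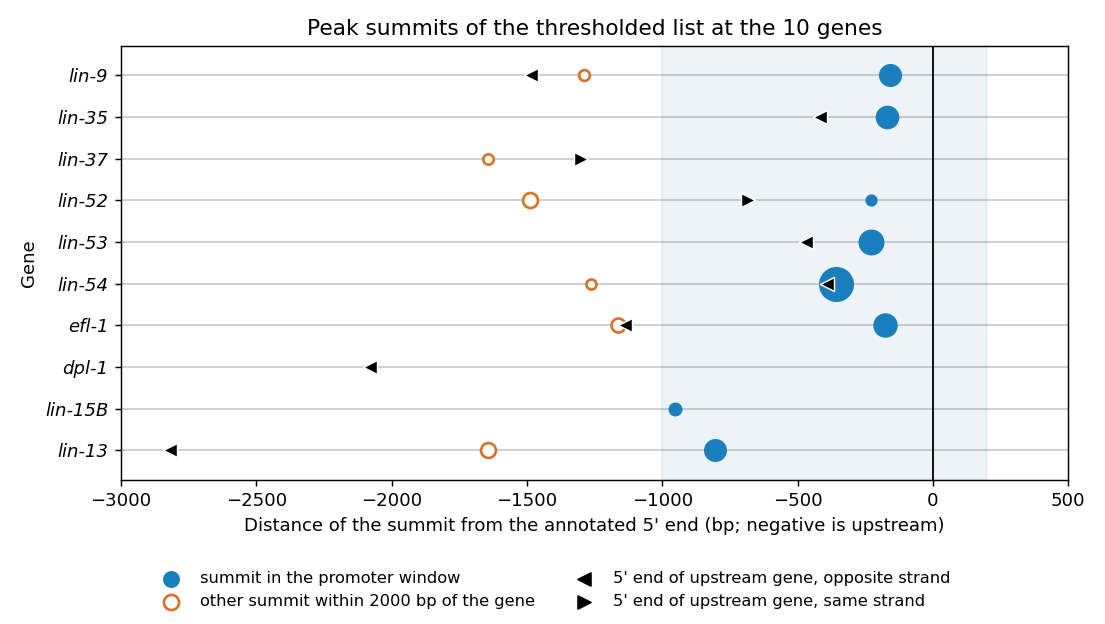
Position of thresholded peak summits (circles, area proportional to signal) relative to the annotated 5′ end of each gene in bp, with the promoter window shaded and triangles at the 5′ end of the next upstream protein-coding gene. Filled circles lie in the window of 8 genes, and lin-37 and dpl-1 have none; peaks beyond the 3′ end of a gene are not drawn.

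The DNA under the summits is shown for lin-9, lin-54, efl-1, lin-15B and lin-13. The first 4 hold strings that recur near these summits, and lin-13 is shown as a strong peak without them. Each sequence is the plus strand of WBcel235, read from the RefSeq genome within 50 bp either side of the summit, with annotated exons trimmed. Capitals mark the letters GAGCGC, and the longer TGGAGCGC where it is present. The lin-9 sequence is chrIII:8904240-8904340, that of lin-54 is chrIV:13240652-13240737, that of efl-1 is chrV:16965802-16965902, that of lin-15B is chrX:15725122-15725222 and that of lin-13 is chrIII:7710247-7710347.
lin-9: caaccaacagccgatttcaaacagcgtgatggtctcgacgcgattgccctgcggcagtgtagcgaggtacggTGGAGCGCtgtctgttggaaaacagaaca
lin-54: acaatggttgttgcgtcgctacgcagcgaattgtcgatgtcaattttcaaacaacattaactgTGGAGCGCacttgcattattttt
efl-1: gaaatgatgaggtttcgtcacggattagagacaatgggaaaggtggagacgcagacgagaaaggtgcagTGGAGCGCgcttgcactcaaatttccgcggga
lin-15B: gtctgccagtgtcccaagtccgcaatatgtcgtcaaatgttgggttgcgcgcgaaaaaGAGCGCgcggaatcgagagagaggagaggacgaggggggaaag
lin-13: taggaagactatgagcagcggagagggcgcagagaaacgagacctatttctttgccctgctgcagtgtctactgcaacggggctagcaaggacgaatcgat

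The octamer TGGAGCGC stood within 50 bp of the summit at lin-9, lin-54 and efl-1, which is 3 of the 8 peaks. It was found on either strand in 100 of all 1891 promoter peaks (5.29%), and in 0.491% of windows of the same 101 bp placed 190 bp upstream of every protein-coding 5′ end. It began 22, 28 and 19 bp to the right of the summit on the plus strand at lin-9, lin-54 and efl-1. Its core, GAGCGC, was also present near the summits of lin-35 and lin-15B, giving 5 of the 8 peaks, against 15.7% of all promoter peaks and 1.94% of the upstream windows. Both strings were noticed in the printed sequences and then counted, so the counts describe these peaks and are no test.

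Strings of the kind that the DREAM proteins themselves contact were also counted. The cell cycle homology letters TTTGAA were near the summits of lin-9, lin-53 and lin-54, in 3 of 8 peaks, against 17.7% of all promoter peaks and 29.7% of the upstream windows. The variant TTCGAA was in none of the 8, against 6.29% of all promoter peaks. Of the E2F-type strings, TTTCGCGC was at the lin-15B summit, where it overlaps no other string searched, against 1.90% of all promoter peaks. TTTGGCGC, TTTCCCGC and TTTGCCGC were in none of the 8 and in 0.740%, 1.22% and 0.846% of all promoter peaks. All strings were read on both strands. A missing string says only that those letters were not in the 101 bp searched.

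AT-hook proteins are known for binding the minor groove of A and T runs, and these summits were mostly poorer in A and T than the median promoter peak. The AT content within 50 bp either side had a median of 47.0% over the 8 peaks, against 53.5% over all 1891 promoter peaks and 66.3% at the upstream positions of all genes. It was 42.6% at lin-15B, 44.6% at lin-9, 45.5% at lin-53, 46.5% at lin-13 and 47.5% at efl-1. These 5 lay below the lower quartile of all promoter peaks, which was 48.5%. The remaining values were 53.5% at lin-35, 59.4% at lin-54 and 69.3% at lin-52. The 4 letters AATT, a minimal AT-rich site, were near 4 of the 8 summits, against 51.3% of all promoter peaks and 76.0% of the upstream windows.

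**Figure D2:**
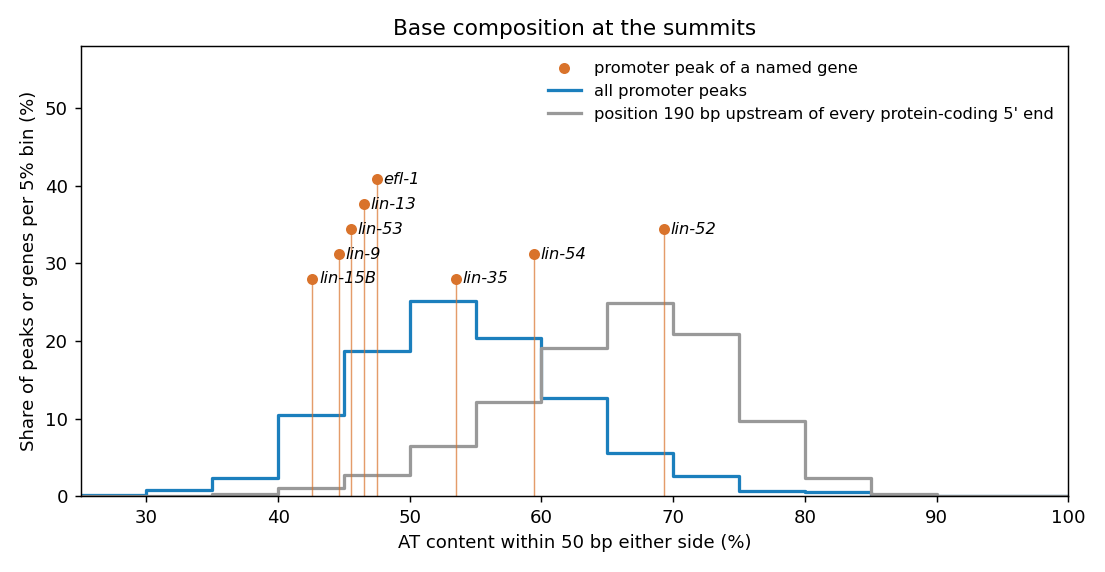
AT content in percent within 50 bp either side of the summit of the 8 promoter peaks (orange, heights chosen for legibility), over the share of all promoter peaks (blue) and of positions 190 bp upstream of every protein-coding 5′ end (grey) per 5% bin. Of the 8 peaks, lin-15B is lowest at 42.6% and lin-52 highest at 69.3%.

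Within the MuvB core, binding ranged from 1 of the strongest peaks of the series to no peak. lin-54 (WBGene00003037, IV 13241044 to 13243401, plus strand), the DNA-contacting subunit, had signals of 519 in replicate 1 and 493 in replicate 3, a mean of 506 ± 18.2 (SD, n = 2). In the thresholded list its signal was 1016, rank 14 of 3331. The summit at 13240687 was at −357 bp from the 5′ end of lin-54 and −36 bp from that of rpl-12, which is transcribed the other way and encodes a protein of the large ribosomal subunit. Under a rule of 1 gene per summit, the nearest, this peak went to rpl-12 and lin-54 had none. A weak peak of 93.2 lay further off, at −1262 bp, in an intron of rpl-12.

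lin-53 (WBGene00003036, I 9618196 to 9619760, minus strand) encodes a histone-binding WD40 protein of the RbAp46 and RbAp48 type, which also belongs to other chromatin complexes. Its signals were 267 in replicate 1 and 271 in replicate 3, a mean of 269 ± 2.92 (SD, n = 2), and 536 in the thresholded list, rank 92. The summit lay at −229 bp from lin-53 and −238 bp from nra-2, which is transcribed the other way, an almost central position between both start sites.

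lin-9 (WBGene00002998, III 8900237 to 8904131, minus strand), a scaffold subunit of MuvB, had signals of 200 in replicate 1 and 214 in replicate 3, a mean of 207 ± 9.65 (SD, n = 2). Its thresholded signal was 416, rank 191, with a summit at −159 bp that lay in no other promoter window. Weaker peaks flanked the gene. A peak of 106 was at −1290 bp, which is −194 bp from unc-32, a gene for a vacuolar ATPase subunit, and a peak of 116 was at 299 bp past the 3′ end.

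lin-52 (WBGene00003035, III 9824083 to 9824750, minus strand), a small MuvB subunit that links the core to the pocket protein, had a weak peak. Its thresholded signal was 99.8, rank 2856, close to the lowest signal of that list, 89.6. Replicate 3 had a summit 35 bp from it with a signal of 59.0, while the nearest summit of replicate 1 was 299 bp away with a signal of 54.1. The replicates therefore did not place the summit alike, and lin-52 was the exception among the 8 peaks. At the other 7, both replicate lists held a summit no more than 100 bp away. The lin-52 summit lay at −229 bp, in the 3′ UTR of ZK632.9, which ends 126 bp from lin-52 on the same strand. A stronger peak of 205 stood at −808 bp from ZK632.9, outside the lin-52 window at −1490 bp.

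lin-37 (WBGene00003022, III 7070890 to 7072552, minus strand), the remaining MuvB subunit, had no peak. Its window held a pooled region with a signal of 24.3 and a −log10 q of 0.117, rank 24552 of 30000, and a replicate 3 region of 14.5, while replicate 1 had no region there. Both of those summits lay in coding sequence of ZK418.5, which ends 60 bp before lin-37 on the same strand. A peak with a signal of 100 was found at −346 bp from ZK418.5, which is −1645 bp from lin-37. Both lin-37 and lin-52 thus have the same arrangement, a gene close behind a same-strand neighbour whose own window holds a peak.

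Of the E2F and pocket proteins, 2 of the 3 genes had strong peaks. efl-1 (WBGene00001161, V 16958590 to 16965675, minus strand), which encodes the E2F subunit, had signals of 266 in replicate 1 and 211 in replicate 3, a mean of 238 ± 38.3 (SD, n = 2), and 473 in the thresholded list, rank 122. The summit was at −177 bp from efl-1 and also within the window of the F-box gene fbxa-90, at −962 bp. A separate peak of 180 stood in the 5′ UTR of fbxa-90. lin-35 (WBGene00003020, I 5807709 to 5815637, plus strand), the retinoblastoma-type pocket protein gene, had signals of 257 in replicate 1 and 183 in replicate 3, a mean of 220 ± 52.4 (SD, n = 2), and 440 in the thresholded list, rank 152. Its summit was at −168 bp, and it is also the promoter peak of vps-51, a divergently transcribed gene for a vesicle tethering subunit, at −250 bp.

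dpl-1 (WBGene00001061, II 9169910 to 9172565, plus strand), which encodes the DP partner of EFL-1, missed the threshold narrowly in the pooled list. Its pooled region had a signal of 84.8 and a −log10 q of 3.16, rank 3586, with a summit at −277 bp. Replicate 1 gave 38.3 at −220 bp and replicate 3 gave 50.4 at −328 bp. Among the 3331 strongest regions of replicate 3 alone this promoter was included, at rank 2817. It was not among those of replicate 1, where the region ranked 5552 with a −log10 q of 1.73. The region lies over an exon of T23G7.2, a longer gene on the opposite strand within which dpl-1 lies.

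The 2 synMuv B genes outside DREAM had their summits far upstream. lin-13 (WBGene00003002, III 7700338 to 7709491, minus strand), which encodes a zinc finger protein, had signals of 253 in replicate 1 and 162 in replicate 3, a mean of 208 ± 64.0 (SD, n = 2), and 413 in the thresholded list, rank 194. Its summit was at −806 bp, and a second peak of 204 was at −1644 bp, in no promoter window. lin-15B (WBGene00023497, X 15726123 to 15732025, plus strand), which encodes a THAP domain protein, had signals of 60.8 in replicate 1 and 74.1 in replicate 3, a mean of 67.5 ± 9.42 (SD, n = 2), and 135 in the thresholded list, rank 1843. Its summit was at −951 bp. Neither peak lay in the promoter window of another protein-coding gene, and neither gene had a peak when the window was narrowed to 500 bp before and 100 bp after the 5′ end. A further region at lin-15B, at −334 bp, reached only 33.7 in the pooled list.

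**Figure D3:**
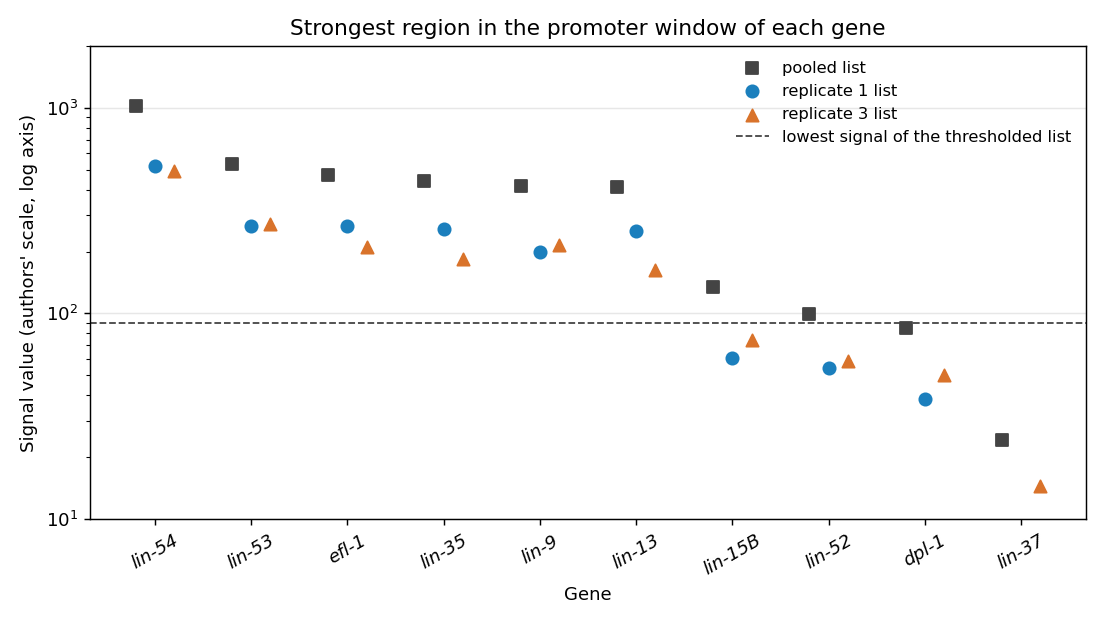
Signal value (authors' scale, log axis) of the strongest region in the promoter window of each gene in the pooled list (squares), replicate 1 (circles) and replicate 3 (triangles), with the lowest thresholded signal, 89.6, as a dashed line. lin-54 is highest in all 3 lists, 6 genes from lin-54 to lin-13 stand well above the line, and dpl-1 is just below it; lin-37 has no replicate 1 region.

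Ordered by the mean of the replicates, lin-54 stood apart, with both replicate values above those of lin-53. The mean of lin-53 was the next highest. Its lower value, 267, was close to the higher value of efl-1, 266, both from replicate 1, so this step was not clearly resolved. The replicate values of efl-1, lin-35, lin-13 and lin-9 overlapped from each gene to the next, so their order was not resolved. lin-15B followed below all of these. The log2 ratio of replicate 1 to replicate 3 ran from −0.29 at lin-15B to 0.64 at lin-13 over the 7 peaks with a summit in both, against a median of 0.12 and an SD of 0.52 over all 3182 such peaks. Replicate 1 was higher at 4 of the 7 and lower at 3. As the thresholded list was made from these same replicates by reproducibility, a match between them was partly built in.

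All 8 summits lay upstream of the 5′ end, at differing distances. The median offset was −229 bp over the 8 peaks, against −195 bp over all promoter peaks, whose quartiles were −352 and −100 bp. The summits of lin-54, lin-13 and lin-15B, at −357, −806 and −951 bp, lay beyond the farther quartile. Of the 8 summits, 7 lay between genes and that of lin-52 in a 3′ UTR, and none of the thresholded summits was inside any of the 10 genes. The peaks of lin-35, lin-53, lin-54 and efl-1 were shared with another protein-coding gene, 4 of 8. For these 4 genes the peak cannot be assigned to a single promoter from the summit alone. Of all 1891 promoter peaks, 642 (34.0%) lay in several windows. That share counts each peak once, although a shared peak serves several genes. A share counted by gene would be higher, so 4 of 8 is not shown to be raised. Peak widths ran from 287 to 475 bp, and the weak peaks of lin-15B and lin-52 both had the median width of the list, 424 bp.

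Partners of the 10 genes in the synMuv pathways and the cell cycle were examined next. Of 37 such genes in 6 lists, 16 (43.2%) had a promoter peak, against 12.3% of all genes, with a median signal of 214. At all 16, both replicate lists held a summit no more than 100 bp away, and 7 of the 16 peaks were shared with another protein-coding gene. The 37 genes were listed from known genetics.

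Other synMuv B genes had a peak at 6 of 13, with a median signal of 214. They were ubc-9 (signal 336) and smo-1 (153), which encode the SUMO conjugating enzyme and SUMO, hda-1 (239), a histone deacetylase gene, lin-36 (225), which encodes a THAP domain protein, lin-61 (203), which encodes an MBT repeat protein, and mep-1 (169), a zinc finger partner of LET-418. The lin-61 peak was shared with the checkpoint kinase gene bub-1, and that of hda-1 was shared with ril-1, whose 5′ end is nearer. With only the nearest 5′ end counted, lin-61 and hda-1 both lost their peak. The hda-1 summit lay at −968 bp, and hda-1 also lost it in the window of 500 bp before and 100 bp after the 5′ end. No peak was found at lin-65, hpl-2, met-2, tam-1, let-418, rba-1 or arle-14, among them the genes for the heterochromatin protein HPL-2 and the H3K9 methyltransferase MET-2.

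The TIP60-type acetyltransferase genes, called synMuv C, were bound at 3 of 4: epc-1 (332), trr-1 (263) and mys-1 (102), but not ssl-1. The epc-1 peak was shared with Y111B2A.12 and the trr-1 peak with C47D12.2. With only the nearest 5′ end counted, trr-1 lost its peak. Further NuRD-type subunit genes were also bound at 3 of 4, with signals below the median of all genes with a peak: dcp-66 (137), lin-40 (127) and egl-27, but not chd-3. The lin-40 and egl-27 summits lay far upstream, at −907 and −979 bp. Both genes lost their peak in the window of 500 bp before and 100 bp after the 5′ end. Of the synMuv A genes only lin-38 had a peak (363), shared with the mitochondrial ribosomal protein gene mrpl-37, and lin-8, lin-15A and lin-56 had none. This count depended on the rule. lin-8 and lin-56 gained a peak when only the nearest 5′ end, up to 2000 bp away, was counted. lin-8 also gained one when any base of a region in the window was enough. The window of lin-15A, the neighbour of lin-15B that shares its name, held a pooled region of 38.4.

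Regulators of G1 and the other E2F genes were bound at 1 of 7, a share of 14.3%, which is near the 12.3% of all genes. The bound gene was cye-1 (244), which encodes cyclin E and shares its peak with pqn-21. Its summit lay at −548 bp, and cye-1 lost the peak in the window of 500 bp before and 100 bp after the 5′ end. Cyclin D (cyd-1), its kinase cdk-4, the inhibitor cki-1, fzr-1, efl-2 and efl-3 had no peak, although cdk-4 reached a pooled signal of 78.1. The cdk-4 promoter was included among the 3331 strongest regions of each replicate taken alone. efl-2 and efl-3 had no pooled region at all in their windows, while efl-1 had one of the stronger peaks. Among genes known to oppose the synMuv B phenotype and its target, mrg-1, a chromodomain protein gene, had a peak of 524. That peak was shared with the signal peptidase gene spcs-2, and mrg-1 lost it when only the nearest 5′ end was counted. isw-1, a chromatin remodelling ATPase gene, had a peak of 115. mes-4, zfp-1 and the EGF gene lin-3 had none.

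**Figure D4:**
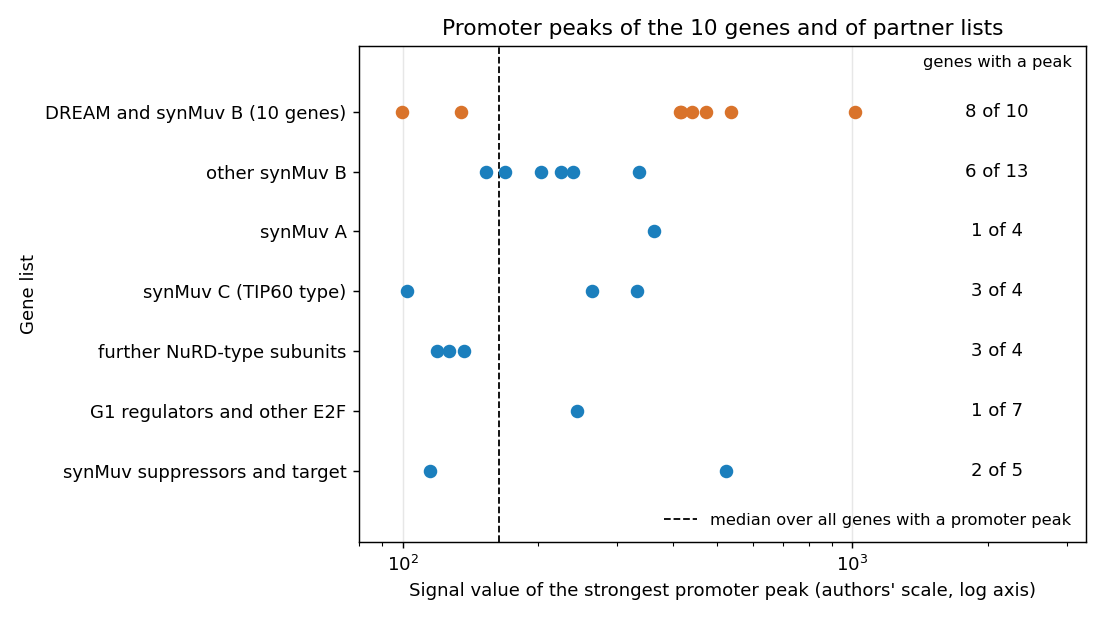
Signal value (authors' scale, log axis) of the strongest promoter peak of each bound gene among the 10 genes (orange) and in 6 lists of partner genes (blue), with the number of genes with a peak at the right and the median over all genes with a promoter peak, 164, as a dashed line. The 8 bound genes of the 10 lie between 99.8 and 1016, a range that includes that of the bound partner genes, 102 to 524.

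Of the 16 partner peaks, 3 held GAGCGC within 50 bp of the summit, against 15.7% of all promoter peaks. The octamer TGGAGCGC was in 0 of the 16, against 5.29% of all promoter peaks, a share at which a count of 0 in so few peaks says little. Promoter peaks with the octamer had a median signal of 198, against 155 for those without it. These peaks include the strong ones from which the string was read. A gap in that direction was also seen for other strings. It was 182 against 153 for GAGCGC, 221 against 156 for TTTGCCGC and 206 against 156 for TTTCGCGC, and smaller for TTTGAA and TTCGAA. The peaks with GAGCGC include all those with the octamer, so these are not separate comparisons. TTTGCCGC and TTTCGCGC stood in only 16 and 36 promoter peaks. TTTGGCGC, TTTCCCGC and AATT went the other way.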

How the data were processed

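Per the labels, ChIP-seq was made from 2 biological replicates of 1 group. Per the deposited description files, the authors made each replicate list from that replicate's alignments and a control, the pooled list from both and the control, and the thresholded list by reproducibility of the replicate and pooled lists (IDR). No source used here gives the aligner, peak caller or depth. The lists have 10 narrowPeak columns. The deposited signal value is the authors' enrichment measure, and the deposited −log10 q-value is used for description. The score and p-value columns were not used. Coordinates are printed from 1.

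A gene had a peak when a summit lay in its promoter window (Ensembl release 115). A replicate matched within 100 bp. AT content and strings were counted in 101 bp of the RefSeq WBcel235 genome with Python 3.11.15 and numpy 2.4.6, and the window rule was tested on simulated summits.

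The 10 genes, the partner lists and the settings were chosen with earlier results of these data known. All 10 genes, those sharing their peaks, and bound partner genes are named, and unbound partner genes where a list has at most 5. The unbound genes of the other 2 lists were named after their values were seen, and so were the strings GAGCGC and TGGAGCGC. No test was run, since there was 1 group. Other windows, thresholds, lists and single replicates were tried.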

Additional observations from a re-analysis of the deposited data

How the results depend on the processing

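The count of 8 genes with a promoter peak ran from 6 to 9 under the other settings, and 16 of 37 partner genes from 11 to 17. The share of all genes ran from 7.43% to 13.2%. The 11 partner genes were found with signals above the median (7.43% of all genes), where mys-1, lin-40, egl-27, dcp-66 and isw-1 were lost. The 17 were found with any base in the window (13.2%) and with replicate 1 alone (11.8%). With the smaller window, lin-13 and lin-15B were lost (6 genes, against 9.61% of all genes), with signals above the median, lin-52 and lin-15B (6, against 7.43%), with the nearest 5′ end, lin-54 (7, against 11.6%), and with a summit required in both replicates, a setting chosen after seeing the data, lin-52 (7, against 12.0%). Without a replicate, the strongest 3331 regions of the other were used. Replicate 1 gave 8 genes, against 11.8% of all genes, and replicate 3 gave 9, against 12.4%, with dpl-1 gained. The median signal was 183 to 255, against 82.3 to 89.8 over all genes, since the replicate lists carry lower signals than the pooled list. The strongest pooled regions are the thresholded list, so that setting gives the same values. The median AT content was 54.5% with 100 bp either side, against 58.7% over all promoter peaks, and 46.5% without lin-52, a setting added after seeing the data. Matching summits within 50 or 200 bp left 7 of 8 peaks in both replicates, and any shared base gave 8. Of 67 recomputed signals of single genes, 16 moved, all of them in single-replicate lists. These 16 set a replicate signal against a pooled one of a higher level, so they do not measure stability. The other 51 were the same regions read again with the same pooled signal, so they say nothing about stability either. A move was one beyond the replicate SD, or any change for lin-52, which had no such SD. The lin-52 value from replicate 1, 54.1, came from a summit 299 bp away. No paired analysis was possible because there is 1 group. Without read depth, a region below the threshold cannot be called unbound.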
